A study of Homo sapiens with 4 samples.

Results

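RAB genes encode small GTPases of membrane traffic. Members were taken as single gene symbols of the platform annotation made of RAB, digits and up to 2 letters, with interacting proteins left out. This gave 58 RAB genes among 19775 genes with a single symbol, each read from its brightest probe set. U937 is an established human myelomonocytic line from a histiocytic lymphoma. The comparison was between U937 cells carrying a lentiviral pSICO-R vector with a short hairpin against PIR, the gene of the nuclear iron-binding protein pirin, and U937 cells carrying the same vector without a hairpin. Both lines grew in RPMI-1640 medium with serum and glutamine, and no other treatment was named. A single hairpin sequence was used, and the design text reports no detectable PIR protein by Western blot. RNA from 3 extractions was mixed into 1 pool per line, and each pool was hybridised to 2 HG-U133 Plus 2.0 arrays. The SDs below are therefore between 2 arrays of the same RNA. They measure hybridisation error, the design holds no replicate of the condition, and no p-value is given.

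RAB proteins switch between a GTP-bound form that docks on a membrane and a GDP-bound form that is extracted from it. Exchange factors load GTP, GTPase-activating proteins speed its hydrolysis, and each GTP-bound RAB recruits effectors such as tethers, motors and sorting proteins. Different members mark different compartments, from the Golgi through early, recycling and late endosomes to secretory granules. In monocytes and macrophages they direct phagosome maturation, cytokine and granule release, and the sorting of innate immune receptors.

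The 4 arrays had been scaled to the same trimmed mean. Values are log2(signal + 18), and a difference is the knock-down pool minus the empty-vector pool on that scale, so dim genes changed by more than their values show. PIR read 83.4 and 91.5 in the knock-down pool against 1813 and 1882 with empty vector. Its log2 difference was -4.15. A gene was counted as measured where its mean over all 4 arrays reached the 60th percentile of signal, which was met by 10158 genes. Of 12 myelomonocytic markers on the array, 9 were measured, and CD14, MPO and FCGR1A were not. None of the T cell or the erythroid and platelet markers was measured. Of 5 epithelial and stromal markers only COL1A1 was measured, at 138 and 223 after knock-down against 166 and 105. For the B cell list, PAX5 and CD79A were measured, and the signal summed over all 4 listed markers ran from 665 to 796 on knock-down arrays and from 722 to 976 on empty-vector arrays.

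Of the 58 RAB genes, 39 were measured and 19 lay below the limit. The 1.5-fold rule asked for a difference of that factor between pools and, in each of the 4 pairings of a knock-down with an empty-vector array, for 0.3 or more in its direction. The 2-fold rule asked for 0.5 in every pairing. By the 1.5-fold rule 7 RAB genes were higher in the knock-down pool, RAB7B, RAB37, RAB40B, RAB27B, RAB5B, RAB33A and RAB9A, and 1 was lower, RAB5C. These are 17.9% and 2.56% of the measured members. Over all measured genes 7.92% were higher and 4.54% were lower by this rule. RAB7B was the only member to meet the 2-fold rule, where 2.04% of all measured genes were higher and 0.955% lower. Scaling the arrays to a common median raised the median difference of all measured genes from 0.04 to 0.17. It turned the split of 7 higher and 1 lower RAB genes into 8 and 0, and that of all genes from 805 and 461 into 1265 and 268.

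Most other members differed little, but by more than the spread between arrays of a pool. The median size of the difference was 0.26 over measured RAB genes and 0.23 over all measured genes, with a median SD between arrays of 0.05 in either pool for the RAB genes. Both knock-down arrays lay above both empty-vector arrays for 23 RAB genes, against 40.4% of all measured genes, and below them for 13, against 30.8%. RAB3D, RAB12 and RAB13 were the 3 whose arrays overlapped. The median difference was 0.12 over the 39 measured members, 0.14 over all 58, and 0.04 over all measured genes. Its sign was not stable: it was -0.05 over 37 members with averaged probe sets of each gene, and -0.10 over 31 members without probe sets of shared probes. A pooled RNA cannot tell a change in every cell from a change in the share of cells.

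**Figure D1:**
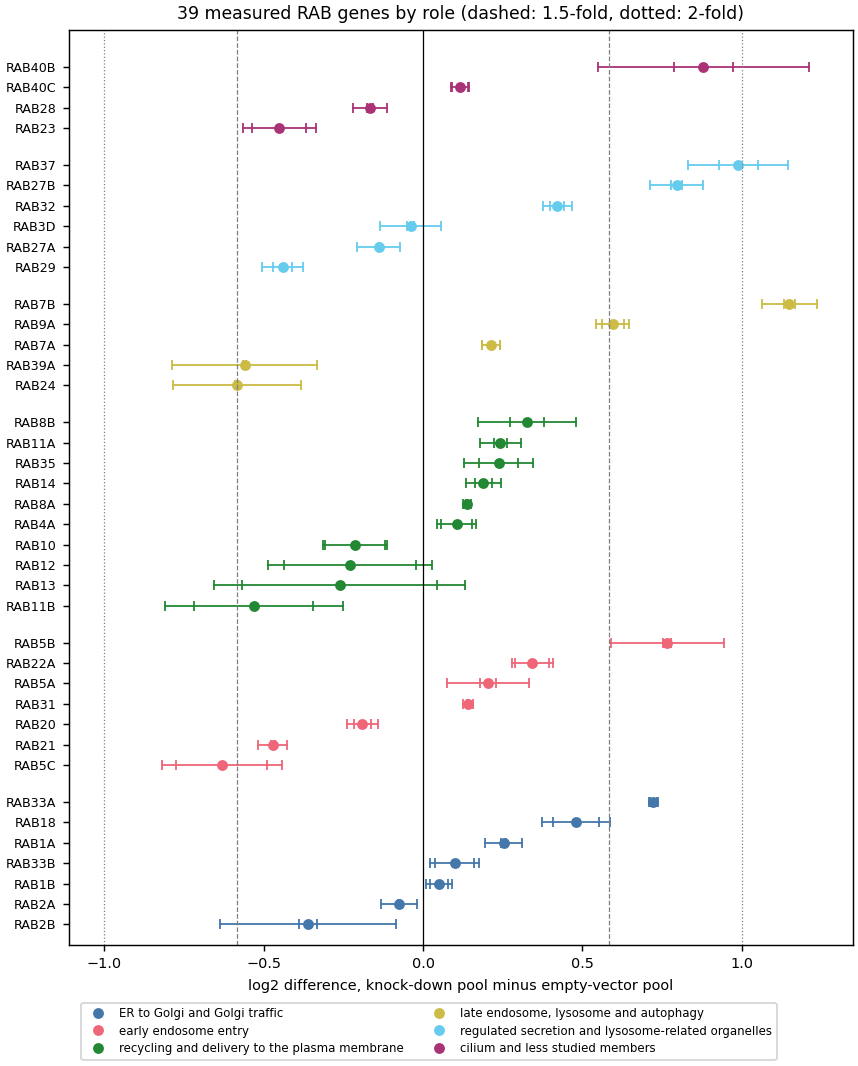
Log2 difference (knock-down pool minus empty-vector pool) of the 39 measured RAB genes, ordered by role; each dot is the difference of pool means, ticks are the 4 array-by-array differences and the line joins their range. RAB7B lies past the dotted 2-fold line, 6 further genes past the dashed 1.5-fold line on the right, and RAB5C past it on the left.

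Among RAB genes of the late endosome and lysosome, 2 of 5 measured members met the 1.5-fold rule as higher, against 7.92% of all measured genes. With so few genes in each role, the counts by role do not tell compartments apart. RAB7B, which acts in transport from endosomes to the Golgi and limits Toll-like receptor signalling in macrophages, had the largest difference of the measured members. Its knock-down arrays read 390 and 371 and its empty-vector arrays 155 and 168. As the rule requires, each knock-down value was above each empty-vector value. The log2 difference was 1.15 (2.22-fold), and array pairs ran from 1.06 to 1.24. Its second probe set gave 1.13. With a pseudocount 4 times larger the difference was 0.95, so the 2-fold call was lost. RAB7A, the general GTPase of late endosome to lysosome fusion, had 5216 and 5217 against 4589 and 4412, a log2 difference of 0.21, and its other 3 measured probe sets gave values from -0.10 to 0.01. The array-pair ranges of RAB7A and RAB7B did not overlap. Such ranges hold hybridisation error only, and those of 2 probe sets of the same gene can also lie apart. For RAB10 they were -0.31 to -0.11 and 0.17 to 0.24.

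RAB9A, which returns mannose 6-phosphate receptors from late endosomes to the Golgi, read 3682 and 3909 after knock-down against 2521 and 2490. The log2 difference was 0.60 (1.51-fold), just past the limit, and without knock-down replica 2 it was 0.55 and the call was lost. RAB24, a member linked to autophagy, went the other way with 654 and 756 against 993 and 1139. Its log2 difference of -0.58 stopped just short of the limit. RAB39A, which acts on phagosomes and in interleukin-1 secretion, had 89.8 and 109 against 141 and 168, a log2 difference of -0.56 at signals near the brightness limit. RAB24 met the rule as lower after quantile normalization, with no pseudocount, and without knock-down replica 2 or empty-vector replica 1. RAB39A met it with no pseudocount and without knock-down replica 2.

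The genes of regulated secretion and lysosome-related organelles held 2 higher members of 6 measured, against 7.92% of all measured genes. RAB37, a secretory granule GTPase first studied in mast cells, had 1844 and 1583 in the knock-down pool and 823 and 881 in the empty-vector pool. The log2 difference was 0.99 (1.99-fold), and it met the 2-fold rule under 4 of the 14 alternatives. RAB27B, which docks secretory vesicles and multivesicular endosomes at the plasma membrane, had 4384 and 4085 against 2374 and 2488, a log2 difference of 0.80 (1.74-fold). Its other 2 measured probe sets gave 0.73 and 1.06. All 3 measured probe sets of RAB27B were therefore higher.

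RAB27A, the close paralog needed for cytotoxic and azurophilic granule release, did not follow RAB27B. On its brightest probe set the signals were 11292 and 10763 against 11882 and 12416, a log2 difference of -0.14. Another bright probe set gave -0.13. The remaining 3 measured probe sets gave -1.26, -1.37 and -1.15, and each met the 2-fold rule as lower. The first of these read 3838 and 3769 after knock-down against 9204 and 9010. No RAB27A probe set was higher, but the size of the difference ranged from 1.09-fold to 2.59-fold with the probe set.

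RAB32, which builds lysosome-related organelles, had 3171 and 3026 against 2329 and 2289, a log2 difference of 0.42 (1.34-fold), and a second, dimmer probe set at -0.36. RAB29, the member that recruits the kinase LRRK2 to membranes, had 1632 and 1528 against 2176 and 2124, a log2 difference of -0.44. Its second bright probe set gave -0.45, and a dim one gave 0.13. RAB3D, a granule GTPase, had overlapping arrays and a log2 difference of -0.04, although a dim probe set gave 0.75.

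The 3 RAB5 paralogs, which drive entry into and fusion of early endosomes, differed in 3 ways. RAB5B read 1084 and 1238 after knock-down against 635 and 714, a log2 difference of 0.77 (1.70-fold). RAB5C had 916 and 1158 against 1581 and 1631, a log2 difference of -0.63 (1.55-fold lower). RAB5A had 6822 and 6126 against 5415 and 5820, a log2 difference of 0.20. The array-pair ranges of the 3 genes did not overlap: 0.59 to 0.94 for RAB5B, 0.07 to 0.33 for RAB5A and -0.82 to -0.44 for RAB5C. The second RAB5A probe set gave 0.26 and the second RAB5C probe set gave -0.91. RAB5B had a single probe set. RAB5C was no longer called without knock-down replica 1 (-0.47) or after median scaling (-0.51), and it has only probe sets with shared probes.

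The 250 bases before the RefSeq start of each RAB5 gene are shown because the paralogs differed in direction. Those of RAB7B, the measured member with the largest difference, are shown as well. They are given 5′ to 3′ in GRCh38.p14, from the most upstream listed start. Capitals mark TGACNNNGC, the core of the antioxidant response element, on either strand.
RAB5A (chr3:19946847-19947096, plus strand): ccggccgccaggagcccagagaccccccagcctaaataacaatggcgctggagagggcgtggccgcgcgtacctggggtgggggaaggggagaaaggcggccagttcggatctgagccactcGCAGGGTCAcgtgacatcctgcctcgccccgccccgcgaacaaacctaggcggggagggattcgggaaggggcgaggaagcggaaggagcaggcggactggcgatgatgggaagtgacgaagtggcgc
RAB5B (chr12:55973699-55973948, plus strand): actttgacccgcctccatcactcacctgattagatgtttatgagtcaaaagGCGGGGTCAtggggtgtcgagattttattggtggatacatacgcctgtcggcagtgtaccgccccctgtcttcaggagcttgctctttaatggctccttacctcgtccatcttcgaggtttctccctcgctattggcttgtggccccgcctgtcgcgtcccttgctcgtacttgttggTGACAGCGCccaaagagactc
RAB5C (chr17:42154990-42155239, minus strand): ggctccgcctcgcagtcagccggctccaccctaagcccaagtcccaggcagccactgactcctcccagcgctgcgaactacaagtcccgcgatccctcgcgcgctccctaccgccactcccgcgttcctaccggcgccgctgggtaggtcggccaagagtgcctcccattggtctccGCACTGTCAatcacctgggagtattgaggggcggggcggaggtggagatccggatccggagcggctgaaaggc
RAB7B (chr1:206003396-206003645, minus strand): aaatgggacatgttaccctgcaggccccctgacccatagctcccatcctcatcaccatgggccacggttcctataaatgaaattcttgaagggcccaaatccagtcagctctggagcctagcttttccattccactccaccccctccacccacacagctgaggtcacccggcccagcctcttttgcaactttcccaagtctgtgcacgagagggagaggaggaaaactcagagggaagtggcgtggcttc

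The RAB5A match begins 128 bases before the start and overlaps an E-box, the RAB5B matches begin at 199 and 21 bases, and that of RAB5C at 73 bases. The RAB7B window had no match. So the pattern was present in the windows of the higher RAB5B, the lower RAB5C and the little changed RAB5A alike. Promoters were listed for 46 of the 58 members, all but RAB1A, RAB2A, RAB12, RAB15, RAB20, RAB26, RAB33A, RAB33B, RAB36, RAB37, RAB38 and RAB39B. TGACNNNGC occurred for 11 of these 46 genes (23.9%) and for 13.2% of 27305 genes. CACGTG, the E-box, occurred for 5 (10.9%) against 7.73%, the PU.1 site GAGGAAGT for 1 (2.17%) against 2.65%, and the kappaB consensus for 6 (13.0%) against 11.8%, with both strands searched. Of the called members with a listed promoter, RAB5B, RAB5C and RAB40B held TGACNNNGC, and RAB7B, RAB27B and RAB9A held none of the 4 motifs. These matches describe letters in the windows and show no binding.

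RAB21, an early endosome GTPase that binds integrins, had 1223 and 1179 in the knock-down pool against 1695 and 1650. Its log2 difference was -0.47 (1.39-fold lower), with array pairs from -0.52 to -0.43, and its other measured probe sets gave -0.92 and -0.67, both past the 1.5-fold rule. RAB21 was thus lower on all 3. RAB22A, which sorts cargo into recycling tubules, had 1299 and 1309 against 982 and 1067 on its brightest probe set, a log2 difference of 0.34. Its second probe set gave -0.60 and met the 1.5-fold rule in the other direction. RAB31, its close paralog, had a log2 difference of 0.14 (4907 and 4857 against 4456 and 4404). Both other RAB31 probe sets were negative, at -0.10 and -0.18. RAB20, which takes part in phagosome maturation, had a log2 difference of -0.19.

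No RAB gene of recycling and delivery to the plasma membrane met the 1.5-fold rule on its brightest probe set, among 10 measured. Over all measured genes 7.92% were higher and 4.54% lower, so few calls would be met among 10 genes at that share. RAB8B, an exocytic GTPase, had 4182 and 4829 against 3456 and 3711, a log2 difference of 0.33, but its other probe sets gave 0.60 and 0.56. The 0.60 met the rule. RAB8A, its paralog, had 4460 and 4489 against 4040 and 4090, a log2 difference of 0.14, and its array-pair range did not overlap that of RAB8B. RAB11A, the GTPase of the recycling endosome, had a log2 difference of 0.24 and other probe sets at -0.21 and -0.18. RAB11B had -0.53 at signals of 158 and 109 against 206 and 192, and 0.03 on a second dim probe set. RAB10, known for carrying glucose transporters and innate immune receptors to the surface, had -0.21 on its brightest probe set and 0.20 on its other. RAB13, a junction and migration GTPase, had -0.26 with overlapping arrays, 1374 and 1463 against 1333 and 2176. RAB4A, RAB14 and RAB35 had log2 differences of 0.11, 0.19 and 0.24, of which only RAB14 was positive on every measured probe set, and RAB12 had -0.23 with overlapping arrays.

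In the Golgi group, 1 of 7 measured members met the 1.5-fold rule as higher, against 7.92% of all measured genes. RAB33A, a Golgi-linked GTPase of secretory vesicles, had 2717 and 2765 in the knock-down pool and 1653 and 1654 in the empty-vector pool. Its arrays repeated closely, and the log2 difference was 0.72 (1.65-fold) with array pairs from 0.71 to 0.74. Its paralog RAB33B, which binds the autophagy factor ATG16L1, had a log2 difference of 0.10. RAB18, found on the endoplasmic reticulum and lipid droplets, had 3566 and 3150 against 2428 and 2369, a log2 difference of 0.48 (1.40-fold), and its other measured probe sets gave 0.49 and 0.09. It met the 1.5-fold rule only after median scaling among the alternatives run. RAB1A and RAB1B, which act in export from the endoplasmic reticulum, had 0.25 and 0.05, with array-pair ranges that did not overlap. Of the other RAB1A probe sets, 1 gave -0.10, and another, at 0.04 to 0.21, overlapped the RAB1B range of 0.01 to 0.09. RAB2A and RAB2B had -0.08 and -0.36, with overlapping ranges, and the 6 measured RAB2A probe sets had both signs.

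Of the remaining members, RAB40B, a RAB that carries a SOCS box and joins ubiquitin ligases, had 441 and 324 against 216 and 180. The log2 difference was 0.88 (1.84-fold), with wide array pairs from 0.55 to 1.21. A dimmer probe set with shared probes, below the brightness limit, had a difference of -1.16, and averaging all RAB40B probe sets gave -0.11. RAB40C had a log2 difference of 0.12. RAB23, an antagonist of Hedgehog signalling that acts at the cilium, had 1146 and 996 against 1483 and 1452, a log2 difference of -0.45 (1.37-fold lower). Its other measured probe sets gave -0.14 and -0.73, the latter past the 1.5-fold rule. RAB28 had -0.17.

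**Figure D2:**
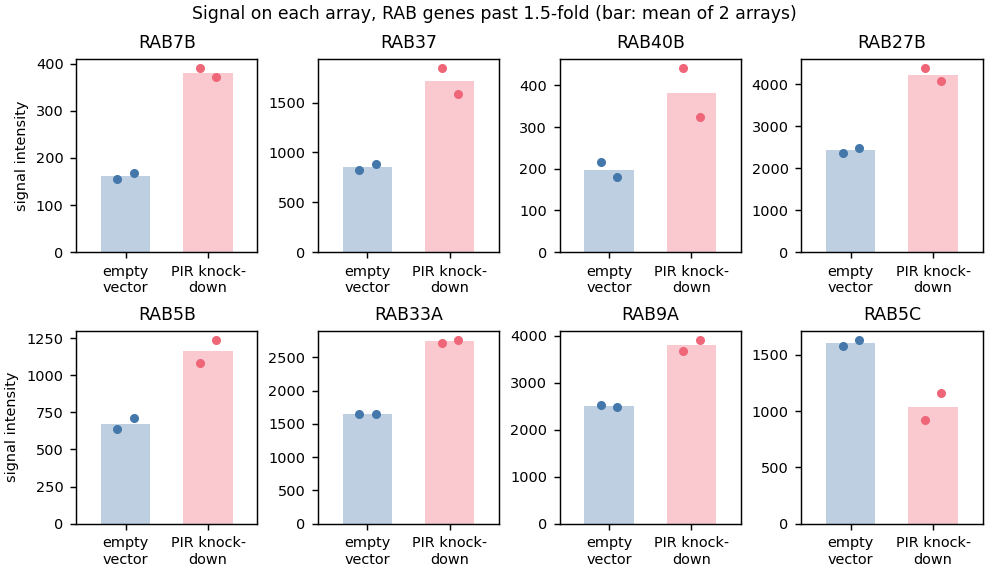
Signal intensity (linear scale) of the 8 RAB genes that met the 1.5-fold rule, with dots for the 2 arrays of each pool and bars for their mean. As the rule that chose them requires, both knock-down arrays lie above both empty-vector arrays in the 7 higher genes and below them in RAB5C.

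Among the measured members 25 had at least 1 other measured probe set, 46 in all. These had the sign of the brightest probe set in 25 cases and the opposite sign in 21. All others shared the sign in 11 genes, and at least 1 opposed it in 14. Members of 1 sign on every measured probe set included RAB7B, RAB27B, RAB27A, RAB5C, RAB21, RAB23 and RAB8B. Of the 46, 4 met the 1.5-fold rule as higher, in RAB7B, RAB27B (2) and RAB8B, and 8 as lower, in RAB27A (3), RAB21 (2), RAB22A, RAB23 and RAB5C. This balance is opposite to the 7 higher and 1 lower on brightest probe sets. But it counts probe sets, several of them of the same gene, and leaves out genes with no other measured probe set. Counted by gene, 6 were higher and 2 lower with all probe sets averaged. Without probe sets of shared probes 7 were higher and 0 lower. Shares of sign and of calls among the other probe sets of all genes were not computed. RAB37, RAB5B, RAB33A, RAB9A and RAB40B had no second measured probe set, so their differences rest on 1 each.

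**Figure D3:**
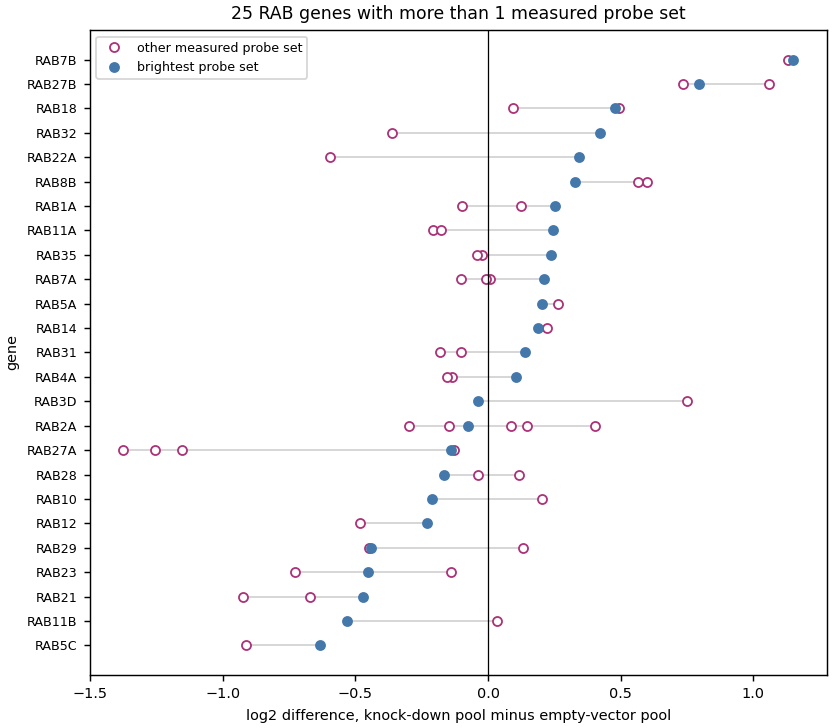
Log2 difference (knock-down pool minus empty-vector pool) on every measured probe set of the 25 RAB genes with more than 1; filled dots are the brightest probe set and open dots the others. The open dots of RAB27A reach -1.37, while its brightest probe set is at -0.14.

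The 19 RAB genes below the limit had log2 differences of both signs, from -1.63 for RAB42 to 0.95 for RAB30, and signals of at most 182 on any array. They were RAB3A, RAB3B, RAB3C, RAB4B, RAB6A, RAB6B, RAB9B, RAB15, RAB17, RAB25, RAB26, RAB30, RAB36, RAB38, RAB39B, RAB40A, RAB40AL, RAB42 and RAB43. RAB6A, a main GTPase of the Golgi, is listed here because 4 further probe sets carry its symbol together with others and were not assigned. RAB4B likewise shares 4.

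Partner genes were read from lists by role, each gene from its brightest probe set. The lists were not recomputed with averaged probe sets, without probe sets of shared probes or under the other alternatives. Of 30 measured GTPase-activating proteins, which return RABs to the GDP form, 26 had a positive difference and 7 met the 1.5-fold rule as higher and none as lower, with a median of 0.30. Over all measured genes 55.1% had a positive difference, 7.92% were higher and 4.54% lower by this rule, and the median was 0.04. EVI5L met the 2-fold rule with signals of 286 ± 2.12 (SD, n = 2 arrays) against 128, a log2 difference of 1.05, while its 3 dimmer probe sets, below the limit, gave 0.51 to 0.64 with array pairs on both sides of 0. The other 6 were TBC1D2, which acts on RAB7A, RABGAP1, TBC1D4, the regulator of glucose transporter traffic, TBC1D16, TBC1D2B and TBC1D9, with log2 differences from 0.59 for TBC1D9 to 0.84 for TBC1D2. Of 45 measured exchange factors none met either rule. Their median was 0.09, from -0.52 for TRAPPC8, a subunit of the tethering complex that activates RAB1, to 0.57 for RIN2, an exchange factor of RAB5.

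Of 46 measured effectors 39 had a positive difference, with a median of 0.23, and 5 met the 1.5-fold rule as higher and 2 as lower. The called shares were near the 7.92% and 4.54% of all measured genes, and 55.1% of those had a positive difference. EEA1, the RAB5 effector that tethers early endosomes, had 518 ± 52.1 in the knock-down pool against 1338, a log2 difference of -1.34 (2.54-fold lower). A second measured EEA1 probe set gave -0.52. APPL2 and APPL1, RAB5 effectors of an earlier signalling endosome, had 1.30 and 0.58, and APPL2 met the 2-fold rule (714 ± 11.7 against 280). Further RAB5 effectors on the list, namely RABEP1, RABEP2, RBSN, ANKFY1, PIK3C3 and PIK3R4, lay between 0.02 and 0.33. Of the RAB5 effectors named in this paragraph EEA1 alone had a negative difference.

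SYTL1 and SYTL3, synaptotagmin-like effectors of the RAB27 proteins, had log2 differences of 1.20 (754 ± 18.5 against 317) and 0.77. SYTL1 had a single probe set. UNC13D, the RAB27 effector that primes granules, had 0.53, and EXPH5 had 0.55. MLPH, another RAB27 effector, went the other way at -0.24, with array pairs from -0.87 to 0.39. OPTN, a RAB8 effector and autophagy receptor, had 1.26 (498 ± 31.3 against 197), and its second probe set gave 1.03. MICAL1 had 0.73. BICD1, a dynein adaptor of RAB6, had -1.17 on its brightest probe set, but its other 5 probe sets, 4 of them measured, ran from -0.40 to 1.74. VPS39 and VPS41, tethering subunits that bind late endosomal membranes with RAB7, had 0.42 and 0.46. KIF20A, a RAB6-binding kinesin of cell division, had -0.45.

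RABAC1, a membrane receptor for prenylated RABs, met the 1.5-fold rule with a log2 difference of 0.85, and the other 5 measured genes of escort, extraction and prenylation lay between -0.10 and 0.21. Among the RAB kinases and phosphatase, PPM1H, which dephosphorylates RABs, had 0.63 and LRRK1 had -0.004, and LRRK2 was not measured. IFT27 and IFT22, RAB-like GTPases of intraflagellar transport, had 0.64 and 0.66, and RABL3 had -0.32.

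**Figure D4:**
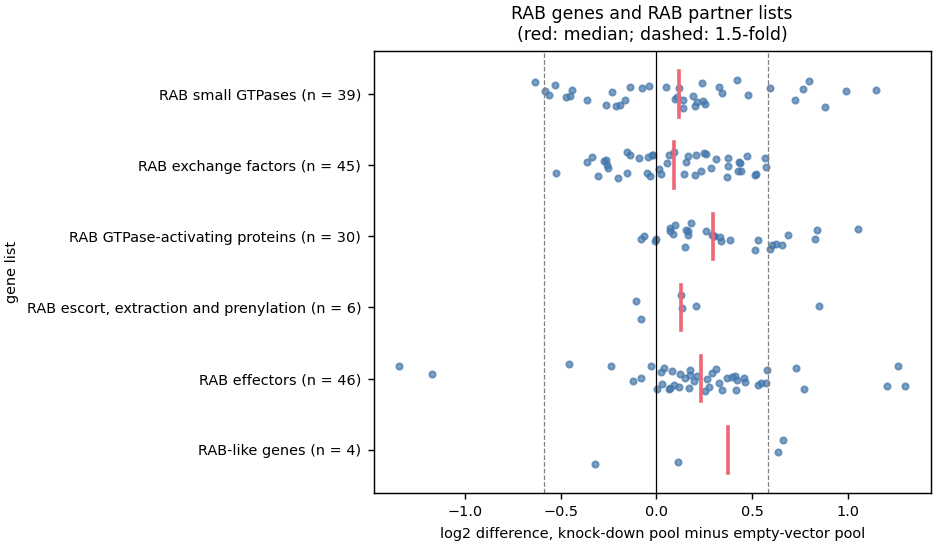
Log2 difference (knock-down pool minus empty-vector pool) of each measured gene of the RAB family and of 5 partner lists; dots are genes, spread vertically for legibility, and red bars are medians. Medians are 0.12 for the RAB genes, 0.30 for GTPase-activating proteins and 0.23 for effectors, and the 2 lowest effector dots are EEA1 and BICD1.

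Other programmes differed between the same pools. The 16 mitotic genes, each measured, were lower in the knock-down pool (median log2 difference -0.72), and 12 met the 1.5-fold rule, against 4.54% of all measured genes. Their summed signal was 51303 to 53310 on knock-down arrays and 85832 to 86184 on empty-vector arrays. The myelomonocytic markers summed to 52318 and 56931 against 46930 and 48381, with a median difference of 0.38 over 9 measured genes. LYZ, the brightest, read 25100 and 30525 against 27356 and 27533, a log2 difference of 0.01. By the 1.5-fold rule 3 of the 9 were higher and none lower, against 7.92% and 4.54% of all measured genes. ITGAM had the largest difference, 1.90. The part of either programme in the RAB differences was not tested. The ratio of 3′ to 5′ probe sets was 0.96 to 1.02 for GAPDH and 1.17 to 1.18 for ACTB over the 4 arrays.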

How the data were processed

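Gene expression was measured in 4 arrays of 2 RNA pools. The deposited values are 1 linear signal intensity per probe set and array, made by the authors with GCOS, per the submitters' processing notes. The trimmed mean (2% at each end) was 500.07 on every array, so totals were equalised before deposit, and a shift common to most genes would not be seen. Detection calls were not used here, and the number of arrays limits the precision.

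Of 54675 probe sets, 62 controls were left out; 41091 carried 1 gene symbol, 1801 carried several and stayed unnamed, and 11721 carried none. All 58 members matched the RefSeq gene table by identifier. Values were log2(signal + 18), 18 being the mean 25th percentile. Arrays of a pool were averaged and counted as 1 sample, and every call is a rule of size. The members, lists, rules and alternatives were chosen with earlier results of these data known, and the promoter motifs after the values were seen. Named genes were PIR, members past a rule, the 2 largest differences in each direction by role, close paralogs and, in each partner list, members past 2-fold or otherwise the largest in each direction; partners named beyond this were chosen after their values were seen. A protein motif check of the members that had been planned was not made. The size rules were tested on simulated data that gave every gene the same array spread and held no variation between cultures. Promoter sequences are from RefSeq, GRCh38.p14. Python 3.11.15, pandas 2.3.3 and numpy 2.4.6 were used.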

Additional observations from a re-analysis of the deposited data

How the results depend on the processing

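The 7 higher RAB genes were all called in 11 of the 14 alternatives. Dropping the margin over array pairs or the brightness limit only loosens the rule, so neither could lose a call. The count was 8 after median scaling (RAB18 added), 9 with no brightness limit (RAB25 and RAB30 added), 5 at the 75th percentile limit, and 6 with all probe sets averaged; leaving out single arrays gave 6 to 7. The count of 2-fold higher genes was 2 with no pseudocount or after median scaling, 0 with a pseudocount 4 times larger or the 75th percentile limit, and 1 to 3 without single arrays. With no brightness limit 2 genes were 2-fold lower. The count of 1.5-fold lower genes was 3 with no pseudocount or no brightness limit. It was 2 after quantile normalization or with all probe sets averaged (RAB27A added). It was 0 after median scaling or without probe sets of shared probes, and 1 to 3 without single arrays. Without knock-down replica 1 the only gene called lower was RAB11B. Without empty-vector replica 1 RAB13 and RAB24 joined RAB5C. The median difference was 0.094 after quantile normalization, 0.24 after median scaling, 0.14 with no brightness limit, -0.047 with all probe sets averaged, -0.10 without probe sets of shared probes, and 0.10 to 0.15 without single arrays. The difference of RAB40B was -0.11 with all probe sets averaged, and the other 78 of 79 recomputed differences of called genes kept their sign. Much of this was fixed by the rule, which asks for every array pairing in 1 direction. On the same probe set, leaving out an array or changing the pseudocount cannot reverse such a sign. For genes with a single probe set, the probe-set alternatives return the main value. Over all genes, the main 207 and 97 (2-fold higher and lower) and 805 and 461 (1.5-fold) became 448 and 414 and 1370 and 1262 with no brightness limit; 110 2-fold higher and 485 1.5-fold higher at the 75th percentile; 124, 53 and 524 (1.5-fold higher) with all probe sets averaged; and 64 2-fold lower after median scaling. Why these values moved was not tested beyond the construction of each alternative.

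No paired analysis was possible because each group is 1 RNA pool and the result comes from no test. Same-numbered arrays did not deviate together (correlation of deviations -0.02 across genes).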

Other observations

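Below the brightness limit, 2 RAB genes had larger differences than any measured member; they were chosen after their values were seen. RAB42 read 22.2 and 26.0 after knock-down against 108 and 117, a log2 difference of -1.63. RAB38, a partner of RAB32 in melanosome formation, had 18.7 and 28.8 against 85.4 and 122, a log2 difference of -1.54. In both, the 2 empty-vector arrays lay above the 2 knock-down arrays, and both met the 2-fold rule as lower once the limit was removed. RAB32, measured, differed in the other direction.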
